A study of Mus musculus with 24 samples.

Results

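The GABA-A receptor subunit genes Gabra2, Gabra3, Gabra4, Gabra5, Gabrb1, Gabrb2 and Gabrd were followed across the hippocampus (HIP) and the entorhinal cortex (EC) of trisomic and euploid mice. These 7 of the 55385 Ensembl genes in the count table were taken by symbol, and the rule itself uses no measured value. RNA was sequenced from both regions of 12 male mice, 6 Ts65Dn and 6 wild-type (wt) littermates aged 5-6 months, which gave 24 libraries in 4 groups of 6. Ts65Dn mice carry an extra minichromosome with a segment of mouse chromosome 16 that corresponds to part of human chromosome 21, joined to a centromeric piece of chromosome 17, and all mice shared a mixed F1B6C3B background. Each library came from the dissected region of 1 mouse, so that fewer cells of a type and less RNA per cell cannot be told apart in any comparison given here.

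GABA-A receptors are pentameric chloride channels, usually built of alpha and beta subunits with a gamma or delta subunit, and they carry most fast inhibition in the forebrain. The alpha subunit sets where a receptor sits and how it responds: alpha2 is found at synapses on the axon initial segment, alpha3 is known from cortex and monoaminergic nuclei, alpha5 forms extrasynaptic receptors that are abundant in hippocampal pyramidal cells, and alpha4 pairs with delta in receptors that carry a tonic current. The beta subunits encoded by Gabrb1 and Gabrb2 are needed for assembly and delivery to the membrane. Excess inhibition has been a long-standing question in Down syndrome models, which makes the level of each subunit gene in the HIP and EC of Ts65Dn mice of interest.

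None of the 7 genes lies in the triplicated segments. In GRCm38, Gabra2 lies on chromosome 5 (chr5:70957597-71095849, minus strand), Gabra4 follows on the same strand (chr5:71569749-71658308) and Gabrb1 runs the other way from its neighbour's start (chr5:71658113-72149037, plus strand). Gabra5 is on chromosome 7 (chr7:57407672-57510059, minus strand) and Gabra3 on the X chromosome (chrX:72432681-72656848, minus strand). Gabrb2 is on chromosome 11 (chr11:42419757-42629028, plus strand) and Gabrd on chromosome 4 (chr4:155384980-155398112, minus strand). Gabra4 and Gabrb1 overlap by 196 bases at their 5′ ends and share 46 exonic bases on opposite strands, and Gabra5 shares 148 exonic bases with the antisense gene Gm9962; the strand setting of the authors' counting is not given in the sources used here, so reads from those bases cannot be assigned with certainty.

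RefSeq promoter windows of GRCm38.p6, from 250 bases before to 50 bases after the start, were found for 6 of the 7 genes, Gabrd being the one without an entry. The windows of Gabra3 (chrX:72656758-72657057, minus strand) and Gabra5 (chr7:57510010-57510309, minus strand) are shown because these genes had opposite regional patterns, and those of Gabra4 (chr5:71658259-71658558, minus strand) and Gabrb1 (chr5:71657671-71657970, plus strand) because the genes are neighbours whose RefSeq starts lie 387 bases apart. Capitals mark matches, on either strand, to the TATA box TATAAA, the CRE half-site TGACG or the EGR site GCGTGGGCG.
Gabra3: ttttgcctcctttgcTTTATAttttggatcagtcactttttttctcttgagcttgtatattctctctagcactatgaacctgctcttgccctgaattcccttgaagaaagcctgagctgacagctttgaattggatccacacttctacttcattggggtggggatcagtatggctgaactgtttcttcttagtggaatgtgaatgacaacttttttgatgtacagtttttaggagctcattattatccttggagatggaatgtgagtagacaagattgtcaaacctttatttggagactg
Gabra5: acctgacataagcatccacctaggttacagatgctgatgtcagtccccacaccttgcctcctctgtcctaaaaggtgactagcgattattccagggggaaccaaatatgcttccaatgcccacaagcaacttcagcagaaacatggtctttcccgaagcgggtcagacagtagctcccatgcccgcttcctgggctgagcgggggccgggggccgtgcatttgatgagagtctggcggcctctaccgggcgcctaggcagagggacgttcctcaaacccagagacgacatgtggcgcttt
Gabra4: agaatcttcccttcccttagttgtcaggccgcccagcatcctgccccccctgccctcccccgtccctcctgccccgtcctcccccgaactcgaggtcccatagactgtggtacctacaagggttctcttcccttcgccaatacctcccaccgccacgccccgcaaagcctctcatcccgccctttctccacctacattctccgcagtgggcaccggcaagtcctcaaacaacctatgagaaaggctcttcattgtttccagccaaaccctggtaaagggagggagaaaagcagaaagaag
Gabrb1: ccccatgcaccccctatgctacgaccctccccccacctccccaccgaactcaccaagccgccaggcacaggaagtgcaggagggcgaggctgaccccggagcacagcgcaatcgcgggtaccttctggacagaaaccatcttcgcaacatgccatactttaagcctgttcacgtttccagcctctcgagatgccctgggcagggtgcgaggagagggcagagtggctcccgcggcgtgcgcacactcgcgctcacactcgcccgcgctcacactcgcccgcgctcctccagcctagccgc
The Gabra3 window held 1 TATAAA match, on the strand opposite to the gene and near the upstream end of the window, far from the start. The other 3 windows held none of the 3 motifs. Of the 2 windows not printed, that of Gabra2 held no match and that of Gabrb2 held 1 TATAAA and 1 TGACG. Over the 32851 RefSeq windows of the same length, 13.6% held TATAAA, 20.8% TGACG and 0.612% GCGTGGGCG. The windows differed in base composition, with 39.3% G and C for Gabra3 against 56.7% for Gabra5, 58.7% for Gabra4 and 66.0% for Gabrb1.

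Libraries held between 23128589 and 40476492 counted reads, and the 7 genes had between 656 and 14740 reads in each library. Over the genes of the triplicated chromosome 16 segment, the median level relative to the wt mean of 5 Ts65Dn mice was between 1.43 and 1.54 in HIP libraries and between 1.46 and 1.55 in EC libraries. The libraries labelled Ts65Dn replicate 3 gave 1.02 in the HIP and 0.991 in the EC, within or next to the wt range of 0.981 to 1.01, so they went against their label, and results are also given without that mouse. Of the marker lists, all 5 cortex genes were lower in the HIP than in the EC of both genotypes, and the 3 CA3 genes were higher; of the 4 CA1 genes 2 were higher and 2 lower, and of the 5 dentate granule genes 3 were higher and 1 lower. Called lower in the HIP of both genotypes were also all 3 endothelial and all 3 blood markers and 3 of 6 interneuron markers, as were microglia markers, 4 of 4 in wt and 3 of 4 in Ts65Dn mice. Striatum markers were called lower in the HIP for 2 of 4 genes in wt and 3 of 4 in Ts65Dn mice. In both genotypes 2 of 3 thalamus genes were called higher and 1 lower. Of the 4 astrocyte genes 2 were higher and 2 lower, and 1 of 3 meninges genes was higher. Choroid plexus markers (4 genes) summed to 92.4 to 4876 CPM (counts per 1000000 reads) in wt HIP and 54.8 to 5151 CPM in Ts65Dn HIP but to no more than 49.8 CPM in any EC library, with none of the 4 at 0 in any group. Oligodendrocyte markers (4 genes) summed to 5326 to 8402 CPM in HIP libraries and 1132 to 2343 CPM in EC libraries; the part of these lists in the regional results was not tested.

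All 7 genes were measured well above the filter on low counts in every group. Levels are CPM after TMM scaling over the 24 libraries, and levels of different genes were compared per kilobase of exon. In wt HIP, Gabra5 had the highest level per length of the 7 at 78.3 ± 2.80 CPM per kb (SD, n = 6). Gabra2 followed at 38.6 ± 9.11, Gabra4 at 28.6 ± 0.579 and Gabrb2 at 27.8 ± 2.77 CPM per kb, and the ranges of these neighbours in the order overlapped. Gabrb1 at 20.5 ± 1.31 and Gabra3 at 19.1 ± 3.75 CPM per kb also overlapped, and Gabrd, the delta subunit of extrasynaptic receptors, was lowest at 11.1 ± 1.83 CPM per kb.

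By the same measure the order was different in wt EC, where Gabra3 stood first at 80.0 ± 4.04 CPM per kb and Gabra5 sixth at 22.1 ± 4.59. Between them came Gabrb2 at 36.2 ± 2.58, Gabra4 at 33.9 ± 1.19, Gabrd at 30.5 ± 4.21 and Gabra2 at 26.2 ± 6.20 CPM per kb, each overlapping the next. Gabrb1 was last at 17.2 ± 1.49 CPM per kb. The first and last places per kb of exon were the same in Ts65Dn mice, with Gabra5 at 76.1 ± 12.9 and Gabrd at 10.3 ± 2.04 CPM per kb at the ends of the order in the HIP, and Gabra3 at 69.5 ± 2.68 and Gabrb1 at 15.3 ± 1.39 CPM per kb in the EC.

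The order between genes depended on the length used. Per kb of coding sequence, wt HIP was led by Gabra2 at 218 ± 51.4 (SD, n = 6), followed by Gabrb1 at 199 ± 12.8 and Gabra5 at 168 ± 5.99 CPM per kb. In wt EC Gabra3 was still first at 196 ± 9.91, but Gabrb1 came second at 168 ± 14.5 and Gabra5 last at 47.4 ± 9.84 CPM per kb. Gabrd stayed last in the HIP, at 23.7 ± 3.91 CPM per kb of coding sequence.

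**Figure D1:**
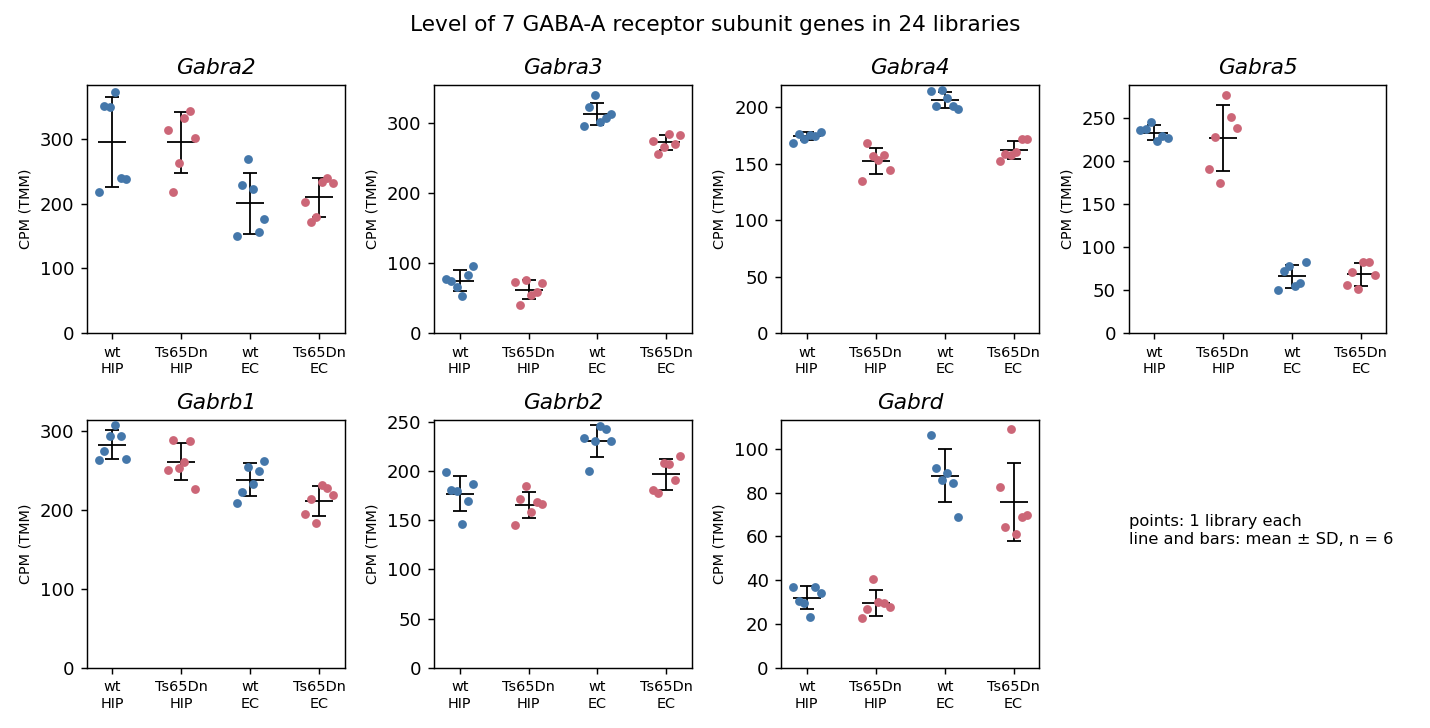
CPM after TMM scaling (vertical axis, from 0) of each of the 7 genes in wt (blue) and Ts65Dn (red) libraries of the HIP and EC, 1 point a library, with mean and SD (n = 6). Gabra5 is high in the HIP and Gabra3 and Gabrd in the EC of both genotypes, and in the EC every Ts65Dn library lies below every wt library for Gabra3 and Gabra4.

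Among the 4 alpha genes followed (summed CPM per kb of Gabra2 to Gabra5), the regions were made up differently. Gabra5 made up 47.6% ± 2.13 (SD, n = 6) of their sum in wt HIP and 13.6% ± 2.13 in wt EC. Gabra3 showed the reverse, with 11.6% ± 2.58 in the HIP and 49.4% ± 1.82 in the EC. These shares depend on the length used: in wt HIP that of Gabra5 was 43.6% with the longest transcript and 31.6% with the coding length in place of all exonic bases.

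Gabra2 held 23.3% ± 4.65 of the sum in wt HIP and 16.02% ± 2.67 in wt EC, and Gabra4 17.4% ± 0.769 and 21.0% ± 1.78. Of the summed level of Gabrb1 and Gabrb2, Gabrb2 made up 57.5% ± 3.99 in wt HIP and 67.7% ± 2.14 in wt EC. In Ts65Dn mice the shares of Gabra5 were 48.7% ± 4.60 and 15.6% ± 2.24, and those of Gabra3 10.3% ± 2.73 and 47.5% ± 2.38, for HIP and EC libraries respectively. Both genes kept the same order between the regions in either genotype.

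**Figure D2:**
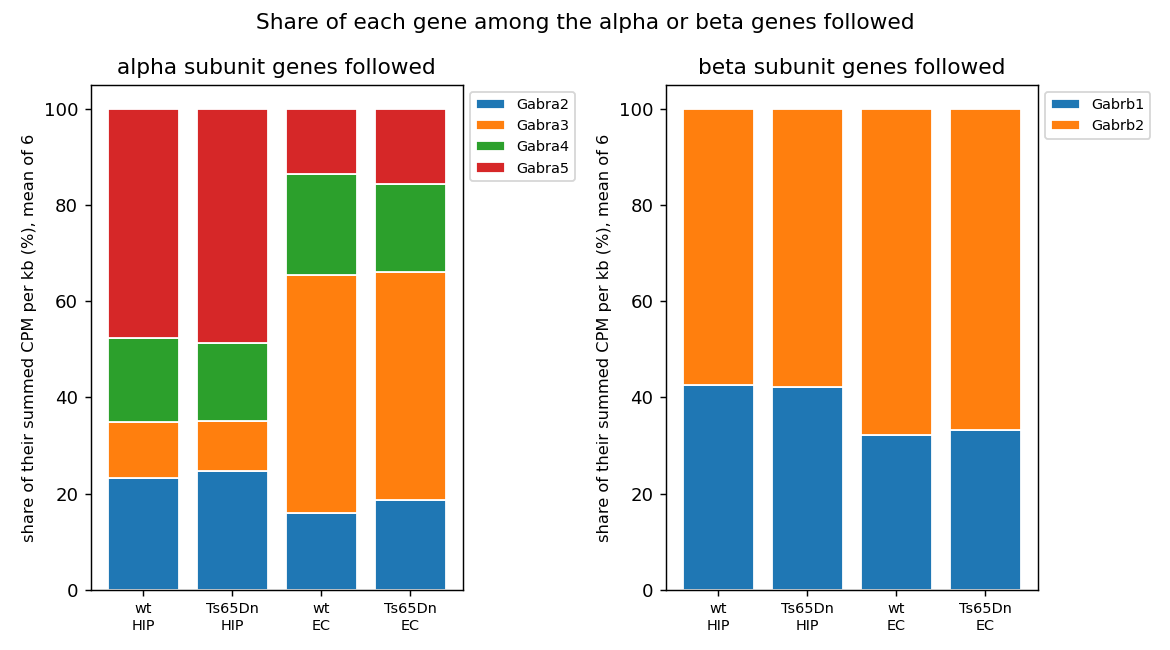
Mean share (%, n = 6) of each gene in the summed CPM per kb of the 4 alpha genes followed (left) and of Gabrb1 and Gabrb2 (right) in the 4 groups. The Gabra5 segment fills 47.6% of the alpha bar in wt HIP and 13.6% in wt EC, and the Gabra3 segment 11.6% and 49.4%.

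The comparison of HIP with EC within the same mice asked how far the subunit genes differ between the regions, and all 7 passed the test in wt mice. Of them 3 were higher and 4 lower in the HIP, against 30.3% of the 18109 genes tested called higher and 28.3% called lower, 58.6% in all, so that a call in this comparison was common. The groups did not overlap for 6 of the 7 genes, against 33.2% of genes tested. Gabra3 and Gabra5 had the widest differences of the 7, in opposite directions.

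Gabra5 had 223 CPM in the lowest, 233 in the median and 246 in the highest wt HIP library, and 49.8, 64.7 and 83.0 CPM in wt EC. Every HIP library was above every EC library, and the level was 3.59-fold higher in the HIP (log2 fold change 1.84, SE 0.08, edgeR adjusted p = 3.87e-11). In Ts65Dn mice the lowest, median and highest values were 174, 233 and 277 CPM in the HIP and 51.1, 68.7 and 82.8 CPM in the EC, again without overlap, and the log2 fold change was 1.74 (SE 0.08, edgeR adjusted p = 7.94e-11). The Ts65Dn HIP libraries spread wider than the wt ones, with a coefficient of variation of 17.0% against 3.57%. The lowest of the Ts65Dn HIP libraries was replicate 3, the mouse that went against its label.

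Gabra3 had 52.7, 75.5 and 95.6 CPM (lowest, median, highest) in wt HIP and 296, 311 and 340.2 CPM in wt EC. The groups lay far apart, and the gene was 4.26-fold lower in the HIP (log2 fold change -2.09, SE 0.11, edgeR adjusted p = 3.59e-10). Ts65Dn mice gave 40.4, 65.0 and 75.3 CPM in the HIP and 257, 273 and 284 CPM in the EC (log2 fold change -2.15, SE 0.11, edgeR adjusted p = 3.10e-10). Its relative spread was larger where the gene was low, 19.7% in wt HIP against 5.05% in wt EC.

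Gabrd had 23.2, 32.4 and 37.0 CPM in wt HIP and 69.0, 87.3 and 106 CPM in wt EC. No HIP library reached the lowest EC library, and the level was 2.76-fold lower in the HIP (log2 fold change -1.46, SE 0.11, edgeR adjusted p = 1.27e-08). The Ts65Dn values were 22.9, 28.7 and 40.4 CPM in the HIP and 60.9, 69.4 and 109 CPM in the EC (log2 fold change -1.34, SE 0.11, edgeR adjusted p = 3.76e-08). The highest Ts65Dn EC library was replicate 3, the mouse that went against its label.

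The remaining 4 genes had smaller regional differences. Gabra2 was 1.47-fold higher in wt HIP (log2 fold change 0.55, SE 0.05, edgeR adjusted p = 1.01e-07) although the groups overlapped, since the spread between mice was wide and shared by both regions of a mouse. Gabrb1 was higher in the HIP by 0.25 on the log2 scale (SE 0.06, edgeR adjusted p = 0.00133), which fell to 0.04 (SE 0.05, edgeR adjusted p = 0.438) with GC content and length removed. In Ts65Dn mice the difference of Gabrb1 was 0.31 (edgeR adjusted p = 0.000198), and with that removal 0.08 (edgeR adjusted p = 0.175). In wt mice Gabrb2 was lower in the HIP, with a log2 fold change of -0.39 (SE 0.07, edgeR adjusted p = 0.000134), and so was Gabra4, with -0.25 (SE 0.04, edgeR adjusted p = 0.000145). For Gabrb2 the value in Ts65Dn mice was -0.24 (SE 0.07, edgeR adjusted p = 0.00638).

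In Ts65Dn mice 6 of the 7 genes were called, 3 higher and 3 lower, where 29.5% of genes tested were called higher and 27.0% lower, 56.5% in all. The groups did not overlap for 3 genes, Gabra3, Gabra5 and Gabrd, against 26.5% of genes tested. Gabra4 was the gene that missed the threshold, with a log2 fold change of -0.08 (SE 0.04, edgeR adjusted p = 0.116). It was called with GC content and length removed (-0.18, SE 0.04, edgeR adjusted p = 0.000972) and without Ts65Dn replicate 2 (-0.12, edgeR adjusted p = 0.0273). Without Ts65Dn replicate 3 the same count of 6 was called.

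Whether the genotype difference itself differed between regions was tested as an interaction, and edgeR called 0 of the 7 genes, against 0% of genes tested. DESeq2 also called 0 of the 7. In the edgeR fit 1 of them, Gabra4, had an unadjusted p below the threshold (log2 difference 0.16, SE 0.06, edgeR unadjusted p = 0.0166, adjusted p = 1). Over all genes 742 had an unadjusted p under 0.05. The regional contrast was therefore not shown to differ between wt and Ts65Dn for any of the 7 genes.

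**Figure D3:**
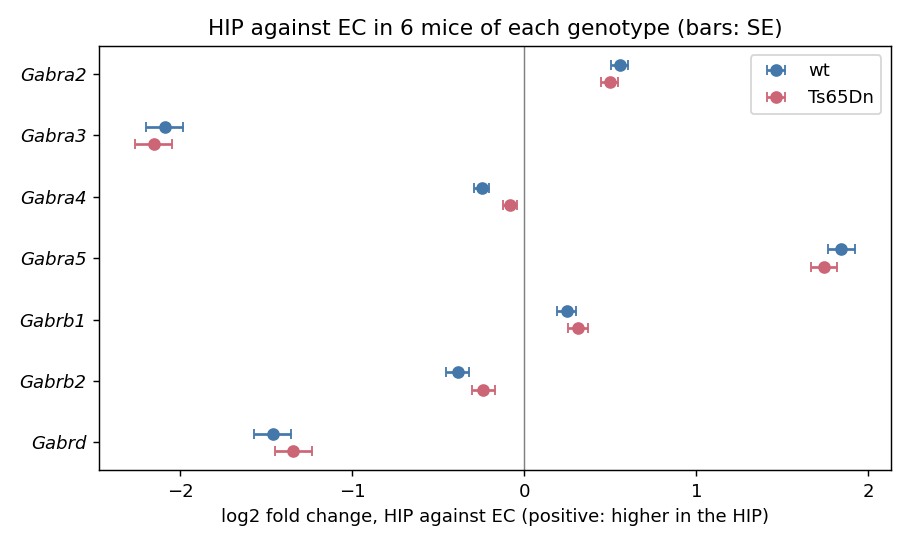
Log2 fold change of the HIP against the EC (horizontal axis, positive values higher in the HIP) for the 7 genes in wt (blue) and Ts65Dn (red) mice, with SE bars from the edgeR fit with a term for each mouse. Gabra5 lies at 1.84 and 1.74, Gabra3 at -2.09 and -2.15 and Gabrd at -1.46 and -1.34, and the genotypes lie close together for each gene.

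In the EC the question was which subunit genes differed between mice labelled Ts65Dn and wt. Gabra4 and Gabra3 were lower in Ts65Dn than in wt mice and the other 5 genes did not pass the test. These 2 of 7 compare with 2.50% of the 17049 genes tested called in either direction and 1.35% called lower. The 7 genes were chosen with earlier results of these data known, so the 2 shares are given as a description. The same 2 genes were the ones whose groups did not overlap, against 2.42% of genes tested. The median log2 fold change of the 7 was -0.22, that of all genes tested 0.0046, and 5 of the 7 values were below 0. Of genes with under 45% G and C, the band of Gabra2, Gabra3, Gabra4, Gabrb1 and Gabrb2, 76.5% were below 0 in the EC. In the band from 45% to 55%, that of Gabra5 and Gabrd, 45.8% were.

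Gabra4 had 199, 205 and 216 CPM (lowest, median, highest) in wt EC and 152, 159 and 172 CPM in Ts65Dn EC. All Ts65Dn libraries were below all wt libraries, and the mean was 162 ± 7.87 against 206 ± 7.26 CPM (SD, n = 6). Ts65Dn replicate 3, the mouse that went against its label, had 158 CPM, within the range of the other Ts65Dn libraries. The gene was 22.3% lower by the fitted fold (log2 fold change -0.36, SE 0.04, edgeR adjusted p = 0.00245). Gabra4 was called without each mouse in turn, with edgeR adjusted p from 0.000718 to 0.0123, the lowest being without Ts65Dn replicate 3. The difference itself was not larger without that mouse, with a log2 fold change of -0.360 (SE 0.0462) against -0.365 (SE 0.0444) with all mice. With GC content and length removed the log2 fold change was -0.27 (edgeR adjusted p = 0.00939).

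Gabra3 had 296, 311 and 340.2 CPM in wt EC and 257, 273 and 284 CPM in Ts65Dn EC, with means of 314 ± 15.8 and 273 ± 10.5 CPM (SD, n = 6). The groups did not overlap, and the log2 fold change was -0.22 (SE 0.04, edgeR adjusted p = 0.0183). It was not called without Ts65Dn replicate 1 (edgeR adjusted p = 0.0536), with GC content and length removed (-0.14, edgeR adjusted p = 0.181) and in a fit over all 24 libraries (edgeR adjusted p = 0.336). Without Ts65Dn replicate 3 it stood at -0.21 (edgeR adjusted p = 0.0220). That mouse, which went against its label, had 266 CPM in the EC, within the range of the other Ts65Dn libraries.

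Gabrb2 had 199.6, 232 and 246 CPM in wt EC and 177, 199 and 215 CPM in Ts65Dn EC. The groups overlapped through 1 low wt library, and the log2 fold change of -0.25 (SE 0.06, edgeR adjusted p = 0.0582) did not pass the threshold. Without that library, wt replicate 2, it was -0.29 (edgeR adjusted p = 0.0247), without Ts65Dn replicate 6 the adjusted p was 0.0361, and DESeq2, which called 6.69% of genes tested in the EC, gave 0.0101. The edgeR adjusted p of Gabrb2 rose to 0.135 without Ts65Dn replicate 1, to 0.111 without Ts65Dn replicate 2 and to 0.221 with GC content and length removed (log2 fold change -0.18). Gabrb1, with 209, 241 and 262 CPM in wt and 183, 217 and 232 CPM in Ts65Dn EC, had a log2 fold change of -0.19 (SE 0.07, edgeR adjusted p = 0.166).

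Gabrd had 69.0, 87.3 and 106 CPM in wt EC and 60.9, 69.4 and 109 CPM in Ts65Dn EC. The log2 fold change was -0.22 (SE 0.13, edgeR adjusted p = 0.386), and -0.36 (edgeR adjusted p = 0.0677) without Ts65Dn replicate 3, whose value was the highest of the 12. Gabra2 and Gabra5 showed no detectable difference, with log2 fold changes of 0.05 (SE 0.14, edgeR adjusted p = 0.886) and 0.04 (SE 0.14, edgeR adjusted p = 0.926).

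In the HIP no subunit gene of the 7 passed the test with edgeR, against 1.04% of the 17355 genes tested, and none had groups that did not overlap, against 1.69%. All 7 log2 fold changes were below 0, with a median of -0.11 where all genes had 0.0047, but that of Gabra2, at -0.00064, was above 0 with GC content and length removed (0.15), with a replicate block (0.02) and in the fit over all 24 libraries (0.0036). Leaving out single mice also put Gabra2 above 0 for 5 of the 12. Gabra5 was above 0 without Ts65Dn replicate 1 (0.0071), and without Ts65Dn replicate 3 both Gabra5 (0.02) and Gabra2 (0.03) were. Of genes with under 45% G and C, the band of Gabra2, Gabra3, Gabra4, Gabrb1 and Gabrb2, 74.9% were below 0 in the HIP. In the band from 45% to 55%, that of Gabra5 and Gabrd, 45.9% were. Gabra4 again had the smallest p of the 7: its values were 168, 175 and 178 CPM in wt HIP and 134, 155 and 168 CPM in Ts65Dn HIP, where all 6 libraries were below the wt mean. Its log2 fold change was -0.19 (SE 0.05, edgeR unadjusted p = 0.0017, adjusted p = 0.0883), and it was the only one of the 7 with an unadjusted p under 0.05.

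DESeq2, which called 3.81% of genes tested in the HIP, called Gabra4 as the 1 gene of the 7 (adjusted p = 0.0139), and the edgeR fit over all 24 libraries gave an adjusted p of 0.0341. With GC content and length removed the log2 fold change was -0.12 (edgeR adjusted p = 0.319). In the fits that left out 1 mouse each, edgeR called it in 0 of 12, with adjusted p from 0.0519 to 0.192, and without Ts65Dn replicate 3 it called 0 of the 7 as well. Gabra3 had 52.7, 75.5 and 95.6 CPM in wt HIP and 40.4, 65.0 and 75.3 CPM in Ts65Dn HIP, a log2 fold change of -0.27 (SE 0.15, edgeR adjusted p = 0.457). The values of Gabra3 overlapped over most of their range.

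The other 5 genes had log2 fold changes between -0.12 (Gabrb1) and -0.00064 (Gabra2) in the HIP. Gabra5 had 223, 233 and 246 CPM in wt and 174, 233 and 277 CPM in Ts65Dn HIP, with a log2 fold change of -0.04 (SE 0.09, edgeR adjusted p = 0.879). The medians of Gabra5 were equal to 3 digits while the Ts65Dn libraries reached further both ways. The lowest was replicate 3, the mouse that went against its label, and replicate 1 at 190 CPM was also below all wt HIP libraries. Gabra2 had 219, 294 and 373 CPM in wt and 218, 307 and 344 CPM in Ts65Dn HIP, so that its groups covered nearly the same range.

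Base composition moved with the genotype difference over all genes. Genes with under 45% G and C in their longest transcript had a median log2 fold change of -0.11 in the EC and -0.08 in the HIP. Genes with 55% or more had 0.10 and 0.09. Of the 7 genes, Gabra2 (38.4%), Gabrb1 (40.9%), Gabra4 (42.2%), Gabra3 (43.1%) and Gabrb2 (44.0%) were under 45%, while Gabra5 (47.1%) and Gabrd (54.7%) were above, and the median of genes tested in the EC was 49.6%. With GC content and length removed in the EC, Gabra4 was still called and Gabra3 was not, as given above. Microglia markers had 1 of 4 genes called lower in both regions, dentate granule markers 1 of 5 called higher and 1 lower in the EC, and thalamus markers 1 of 3 called lower in the EC; their part in these results was not tested.

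**Figure D4:**
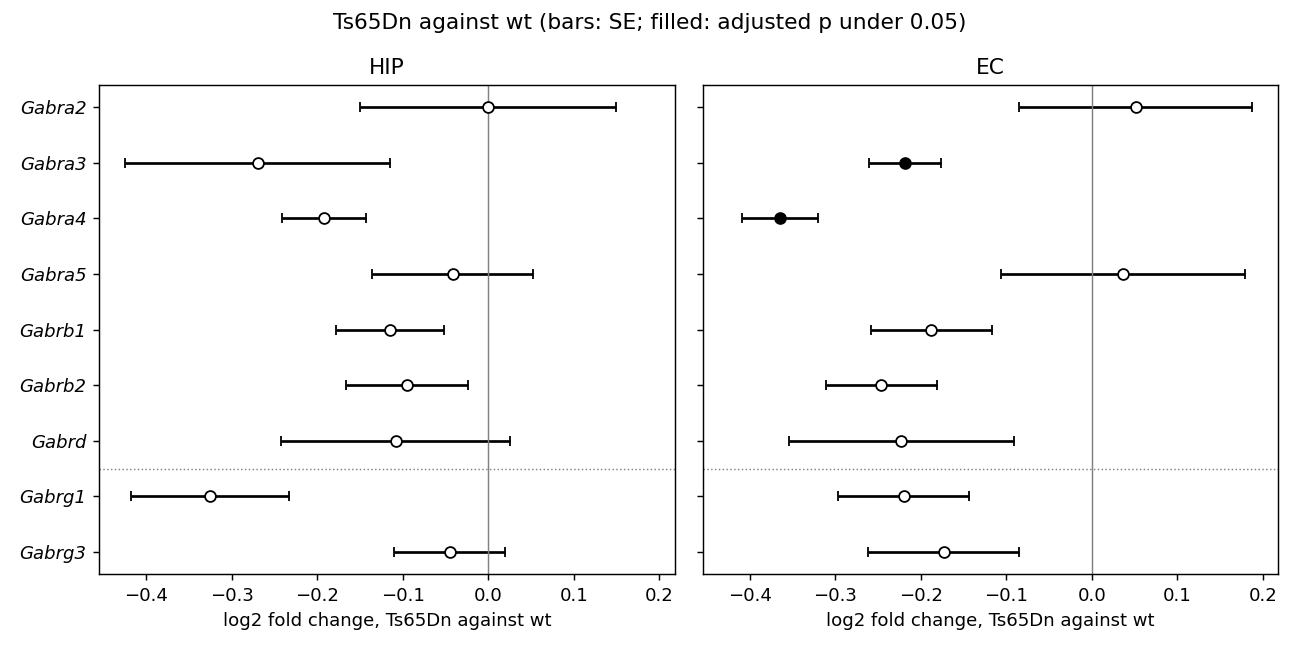
Log2 fold change of Ts65Dn against wt (horizontal axis) in the HIP and EC with SE bars, filled where the edgeR adjusted p was under 0.05; the 7 genes stand above the dotted line and Gabrg1 and Gabrg3 below it. Filled points in the EC are Gabra3 (-0.22) and Gabra4 (-0.36), and no point is filled in the HIP.

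Of 9 further GABA-A receptor subunit genes, edgeR called none in either genotype comparison. In the EC 3 of them passed the filter, 0 were called by edgeR or DESeq2 and 1 had an unadjusted p under 0.05. In the HIP 4 passed the filter, edgeR called 0, 2 had an unadjusted p under 0.05, and DESeq2 called 1, Gabrg1 (log2 fold change -0.33, adjusted p = 0.0273). Gabrg1 is a gamma subunit gene with 35.3% G and C in its longest transcript. With GC content and length removed, the HIP value of Gabrg1 was -0.15 (edgeR adjusted p = 0.606). Gabrr2, a rho subunit better known from retina, had 0.507, 0.643 and 0.828 CPM in wt HIP and 0.839, 1.21 and 1.49 CPM in Ts65Dn HIP. The groups did not overlap, but its edgeR adjusted p was 0.0502 (log2 fold change 0.86, SE 0.19) and it had only 3 to 42 reads in a library over all groups. Gabrr2 was called in the HIP in 1 of 6 alternative fits and in 0 of 12 fits that left out 1 mouse each. Gabra6, Gabrp, Gabre, Gabrr1 and Gabrr3 did not pass the filter in either region.

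From 22 genes of receptor assembly, anchoring and GABA and chloride handling, edgeR and DESeq2 each called 0 in either genotype comparison; unadjusted edgeR p-values were under 0.05 for 1 gene in HIP and 2 genes in EC libraries. The smallest p in the HIP belonged to Gabarap, a receptor trafficking protein (log2 fold change 0.13, SE 0.04, edgeR adjusted p = 0.167). Slc32a1, the vesicular GABA transporter, had 0.15 in the HIP (SE 0.07, edgeR adjusted p = 0.371) and 0.15 in the EC (SE 0.06, edgeR adjusted p = 0.166). Hap1, a receptor trafficking adaptor, had -0.17 in the HIP (SE 0.12, edgeR adjusted p = 0.540), and in the EC Ubqln1, which stabilises subunits, had -0.14 (SE 0.05, edgeR adjusted p = 0.192) and Dbi, which encodes a ligand of the benzodiazepine site, 0.19 (SE 0.09, edgeR adjusted p = 0.296).

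Between regions, 17 of these 22 genes were called in wt mice, 6 higher and 11 lower in the HIP, where 58.6% of all genes tested were called, 30.3% higher and 28.3% lower. In Ts65Dn mice 17 were called as well, 7 higher and 10 lower, against 56.5% of genes tested. A pair of chloride transporters from the list is given here, chosen after the values were seen. In wt mice Slc12a5, the chloride exporter KCC2, was lower in the HIP (log2 fold change -0.62, SE 0.06, edgeR adjusted p = 1.25e-07). Slc12a2, the chloride importer NKCC1, was higher in wt HIP (log2 fold change 1.20, SE 0.13, edgeR adjusted p = 8.04e-07). In Ts65Dn mice the values were -0.59 for Slc12a5 (edgeR adjusted p = 2.76e-07) and 1.33 for Slc12a2 (edgeR adjusted p = 2.85e-07). The choroid plexus, where Slc12a2 is abundant, had its markers at widely varying levels in the HIP libraries, as given above, and their part was not tested.

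Gabra2 had the widest spread between wt mice of the 7 genes, with a coefficient of variation of 23.6% in each region, and a mouse that was low in one region was low in the other. Its level in the HIP correlated with that in the EC over 12 mice (Pearson r = 0.905, permutation p = 0.00023, adjusted over the 7 genes 0.00161; Spearman rho = 0.769, permutation p = 0.00508, adjusted 0.0356). This r was above that of 98.1% of the 16592 genes tested in both regions, whose median r was 0.335. It was 0.877 without the 2 mice farthest from the median, 0.925 within wt, 0.892 within Ts65Dn, and 0.903 without Ts65Dn replicate 3.

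The 5 mice with the lowest Gabra2 were the same in both regions, namely wt replicates 1, 5 and 6 and Ts65Dn replicates 2 and 3, a set noticed after the values were seen. In wt HIP these 3 mice had 219, 239 and 239 CPM and the other 3 had 349.8, 351 and 373 CPM; in wt EC they had 149.6, 156 and 176 CPM and the others 223, 229 and 269.5 CPM. Ts65Dn replicates 2 and 3 had 218 and 263 CPM in the HIP and 172 and 179 CPM in the EC, below the other 4 Ts65Dn mice, which ran from 301 to 344 CPM and from 202 to 240.4 CPM. The highest HIP level was 1.71 times the lowest, whereas the ratio of HIP to EC within a mouse stayed between 1.27 and 1.67 with a coefficient of variation of 8.52%.

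**Figure D5:**
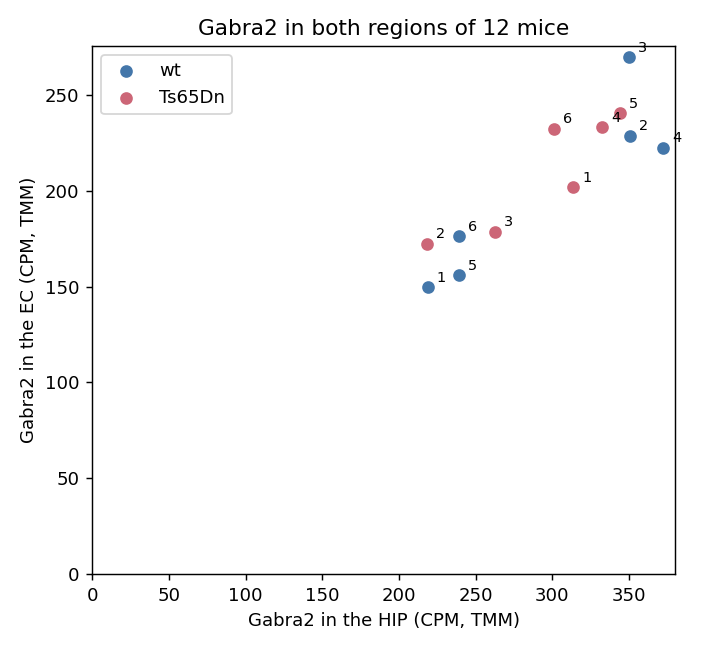
Gabra2 level in the EC (vertical axis, CPM) against that in the HIP (horizontal axis, CPM) for 12 mice, wt in blue and Ts65Dn in red, numbered by replicate. The 5 mice at the lower left, from 218 to 263 CPM in the HIP, are the 5 lowest in both regions and come from both genotypes.

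Among the other genes, Gabra4 and Gabra5 had Pearson r of 0.760 (permutation p adjusted over the 7 genes = 0.0131) and 0.661 (permutation p adjusted = 0.0273) over the 12 mice. Their Spearman rho of 0.622 and 0.573 did not pass (permutation p adjusted over the 7 genes = 0.0926 and 0.0968). Within genotypes Gabra4 gave -0.850 in wt and 0.208 in Ts65Dn, so its pooled relation did not hold within genotypes. Gabra5 gave 0.274 in wt and 0.969 in Ts65Dn, and 0.520 without the 2 farthest mice. Gabra3, Gabrb1, Gabrb2 and Gabrd had r between 0.220 and 0.472, with permutation p adjusted over the 7 genes from 0.176 to 0.488.

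The genes most like each of the 7 were ranked by Pearson r over the 24 libraries in log2 CPM after each region's mean was subtracted; both regions of a mouse share that mouse, so r is a description. For Gabra2 they were Wdr36 (r = 0.789), Slc30a9 (r = 0.787) and Bend4 (r = 0.729). Slc30a9 and Bend4 lie on chromosome 5 as Gabra2 does, 3599 and 3529 kb away from it. For Gabra3 they were Prrg3 (r = 0.855), 460.0 kb away on the X chromosome, Zfp365 (r = 0.850) and Fam81a (r = 0.828).

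Gabra4 was most like Arhgap5 (r = 0.934), Hs2st1 (r = 0.933) and Tmed7 (r = 0.910). The genotype difference of Gabra4 was part of the values ranked, so that genes lower in Ts65Dn libraries could come first, and the log2 fold changes of these 3 genes in Ts65Dn EC were -0.46, -0.23 and -0.40. Gabrb1 was most like Tug1 (r = 0.891), Dcc (r = 0.890) and Lsamp (r = 0.866), and Gabrb2 most like Cntn3 (r = 0.813), Arhgap20 (r = 0.807) and Itgav (r = 0.801).

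Gabra5 was most like Scn3b (r = 0.873), a sodium channel beta subunit gene, Fstl5 (r = 0.857) and Fam19a1 (r = 0.830). Gabrd was most like Pvalb (r = 0.894), the marker of a class of fast-spiking interneurons, and Syt2 (r = 0.860), a synaptotagmin of their terminals, followed by Cd34 (r = 0.850).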

How the data were processed

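Both regions of 12 mice were sequenced, and the labels gave genotype, region and mouse. The authors aligned single-end reads of 50 bases to GRCm38 with Hisat2, counted them per gene with HTSeq-count and deposited raw counts; the labels also name bcl2fastq 2.17.1.14. The deposited DESeq2 and FCROS tables hold the authors' own comparisons and were not used. The labels give a polyA mRNA kit, and the methods name a total RNA kit and also polyA RNA.

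The 7 genes and the lists were chosen with earlier results of these data known. Shares were taken among the genes followed, and some genes of these lists are not reported here. Named genes are the 7, the other subunit genes, from the second list those called in a genotype comparison or, with fewer than 3 called in a region, the 3 of smallest p in it, and the 3 genes most like each of the 7. Fits used all genes that passed filterByExpr: edgeR 4.0.16 quasi-likelihood tests (R 4.3.3, TMM, Benjamini-Hochberg, threshold 0.05) within each region for genotype, and 1 fit over 24 libraries with a term for each mouse for regions and the interaction. That pairing comes from the sample titles; deviations of the regions of a mouse correlated at 0.227 to 0.486. SE is the log2 fold change divided by the root of F. Correlations used log2 CPM with prior count 2 and 100000 resamples. DESeq2 1.42.0, other scalings and filters, GC and length removal, and fits without each mouse were alternatives. Fits were tested on simulated data. Replicates were different mice.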

Additional observations from a re-analysis of the deposited data

Results flagged for a closer look

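Of 28 groups examined for a library far from the rest (7 genes in 4 groups), 1 held one, and chance alone marks about 1 in 20 such groups. Gabrb2 in wt EC replicate 2 had 199.6 CPM, where the nearest of the other 5 wt EC libraries had 230.5 CPM, a gap of 0.667 of the group's range against a limit of 0.625. Without this library the genotype difference of Gabrb2 in the EC passed the test (log2 fold change -0.29, edgeR adjusted p = 0.0247). It was the lowest wt EC value, so that leaving it out raises the wt mean and widens the difference by itself. Of the 12 fits without 1 mouse each, 2 called Gabrb2 in the EC, with edgeR adjusted p up to 0.135.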

How the results depend on the processing

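Among the 7 genes, called in the HIP of Ts65Dn against wt were 1 with DESeq2 and 1 in the fit over all 24 libraries, and called in the EC were 3 with DESeq2, 1 with a replicate block, 1 with GC content and length removed and 1 in the fit over all 24 libraries. Over all genes the HIP gave 662 calls with DESeq2, 29 with a replicate block and 88 with GC content and length removed, and the EC 1141, 36 and 134, with 275 when low counts were not filtered and 768 in the fit over all 24 libraries. The interaction called 37 genes when low counts were not filtered and 0 under the other alternatives. None of the 7 genes passed the same-mouse test within wt alone (0 of 7), where r of Gabra4 reversed to -0.850. The share of Gabra5 in wt HIP was 43.6% by longest transcript and 31.6% by coding length.

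Without 1 mouse each, the fewest calls over all genes in the HIP were 54, when Ts65Dn replicate 6 was left out, and the most 318, when Ts65Dn replicate 3 was; in the EC they were 90 for Ts65Dn replicate 1 and 685 for Ts65Dn replicate 6. Between regions they ranged from 9618 to 10878 in wt and 9372 to 10242 in Ts65Dn, and the interaction stayed at 0. Of the 7 genes, 0 were called in the HIP, 1 to 3 in the EC, 7 between regions in wt and 6 to 7 in Ts65Dn.

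The replicate numbers of wt and Ts65Dn mice name different mice: same-numbered mice had correlations from -0.224 to 0.167, with 1 of 6 best matched to its own number in each region, so the block is no pairing. Under it, Gabra3 in the EC had an edgeR adjusted p of 0.0880. The causes of these shifts were not tested.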
